A study of Mus musculus with 4 samples.

Results

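The immunoglobulin kappa (Igk) and T cell receptor beta (Trb) loci of chromosome 6 were described from a methylated-DNA profile of natural killer T (NKT) cells. All windows of 100 bp that the deposited table lists within chr6:67555636-70726754 (Igk, 3.17 Mb) and chr6:40891296-41548181 (Trb, 657 kb) of the mm10 build were taken. These intervals run from Igkv2-137 to Igkc and from Trbv1 to Trbc2, and no measured value was used to choose them. There were 1699 such windows of 1048575 in all, 1519 in Igk and 180 in Trb. The remainder of chromosome 6 held 128065 listed windows.

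The study profiled NKT cells that bound CD1 tetramers, sorted from the thymus of PLZFon and wild-type (WT) mice on the C57BL/6 strain. In MeDIP-seq, an antibody to 5-methylcytosine captures methylated fragments of sheared DNA, and a library of uncaptured DNA, the input, is sequenced as a control. The 4 groups were PLZFon MeDIP, WT MeDIP, PLZFon input and WT input, with 1 library each, of about 10635946, 15143451, 50365402 and 60689327 reads. The study is about the acetylation of PLZF, a transcription factor (gene Zbtb16) needed for NKT cells to develop. The labels do not say what the PLZFon allele is, how many mice gave cells or how old they were. The antibody label is at odds with the titles: it reads none for both PLZFon libraries and names the antibody for both WT libraries, input included. With 1 library per group there is no estimate of the spread between mice, no test of genotype was made, and each ratio compares a pair of libraries. The 95% intervals are exact binomial or Poisson intervals and cover counting error only. DNA carries no record of expression, so the cell type label was not checked against markers.

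Antigen receptor genes are assembled by V(D)J recombination, in which the RAG proteins cut beside V, D and J segments. The DNA between the joined segments can be lost from the chromosome, though not in every joining. Igk, with V, J and a constant segment, is rearranged in B cells and as a rule keeps its germline order in T cells, whereas Trb is rearranged in thymocytes that become NKT cells. The beta chains of mouse NKT cell receptors come mostly from Trbv13, Trbv29 and Trbv1, and the Trb locus also holds a cluster of trypsinogen genes, which encode digestive proteases of the pancreas. CpG methylation across these loci is known to be lower where segments are open to recombination.

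Of 14 annotated promoters with a RefSeq sequence in both loci, all of genes other than V, D, J and C segments, only those of 1700074P13Rik and Gm46961 held listed windows. They are shown as 300 bases around the annotated start, 5′ to 3′ on the gene's strand (GRCm38.p6, the primary assembly of mm10), with each CpG in capitals, beside the promoter of Prss2, the trypsinogen gene nearest to the D, J and C segments of Trb, which held none.
1700074P13Rik, chr6:40940508-40940807, minus strand: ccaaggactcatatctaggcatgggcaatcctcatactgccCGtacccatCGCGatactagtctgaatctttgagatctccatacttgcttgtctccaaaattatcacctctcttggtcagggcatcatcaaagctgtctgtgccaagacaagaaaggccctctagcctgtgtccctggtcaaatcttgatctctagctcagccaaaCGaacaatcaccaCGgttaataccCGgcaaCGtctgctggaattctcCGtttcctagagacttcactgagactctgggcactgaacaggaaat
Gm46961, chr6:70718827-70719126, minus strand: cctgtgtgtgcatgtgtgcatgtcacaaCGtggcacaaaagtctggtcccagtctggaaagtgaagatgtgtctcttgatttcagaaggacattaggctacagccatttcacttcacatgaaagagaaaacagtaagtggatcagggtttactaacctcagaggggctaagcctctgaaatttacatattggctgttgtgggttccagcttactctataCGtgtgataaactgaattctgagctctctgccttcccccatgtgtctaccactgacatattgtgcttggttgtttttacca
Prss2, chr6:41521526-41521825, plus strand: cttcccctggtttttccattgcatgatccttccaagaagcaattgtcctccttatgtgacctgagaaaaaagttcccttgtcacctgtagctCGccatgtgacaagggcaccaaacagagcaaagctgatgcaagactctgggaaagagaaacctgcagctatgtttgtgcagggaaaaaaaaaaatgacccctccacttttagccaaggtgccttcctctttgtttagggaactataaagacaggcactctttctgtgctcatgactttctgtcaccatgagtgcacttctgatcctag
The 1700074P13Rik sequence has 8 CpG, the Gm46961 sequence 2 and the Prss2 sequence 1. The 14 promoters had a median of 0.5 CpG (range 0 to 8), against a median of 7 over 32851 mouse promoters of the same length. At the 1700074P13Rik promoter, between Trbv1 and Trbv2, 3 listed windows held 7 to 13 PLZFon and 10 to 27 WT MeDIP reads each, with 6 to 8 PLZFon and 9 to 12 WT input reads. At the promoter of Gm46961, a long noncoding RNA gene between the last V segments and the J segments of Igk, 2 windows held 7 PLZFon reads each and 9 and 13 WT reads. The mean per window at the 1700074P13Rik promoter was 9.33 PLZFon and 17.3 WT MeDIP reads, against 8.8 and 13 over all listed windows. At Gm46961 the means were 7 and 11, below those values. Both promoters rest on few windows and few reads. The octamer ATTTGCAT, read on both strands, is an element of immunoglobulin promoters. It was present in 1 of the 14 promoters, that of LOC108169192, and in 1.74% of all promoters. The table of sequences used here held no promoter of a V segment.

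The first comparison asked how much of each locus the pull-down covered. A window is listed only with at least 10 reads over both MeDIP libraries together and a CpG factor, the authors' score of CpG content, of at least 1, so a window that is not listed may still hold reads. No V, D, J or C segment of Trb held a listed window. The 34 V segments span 194 windows and the 18 D, J and C segments 51, with 0 listed. Igk differed at its 3′ end: the stretch from Igkj1 to Igkc had 17 of 43 windows listed (39.5%), against 8.86% over chromosome 6. The 162 Igk V segments had 19 of 1020 windows listed (1.86%).

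**Figure D1:**
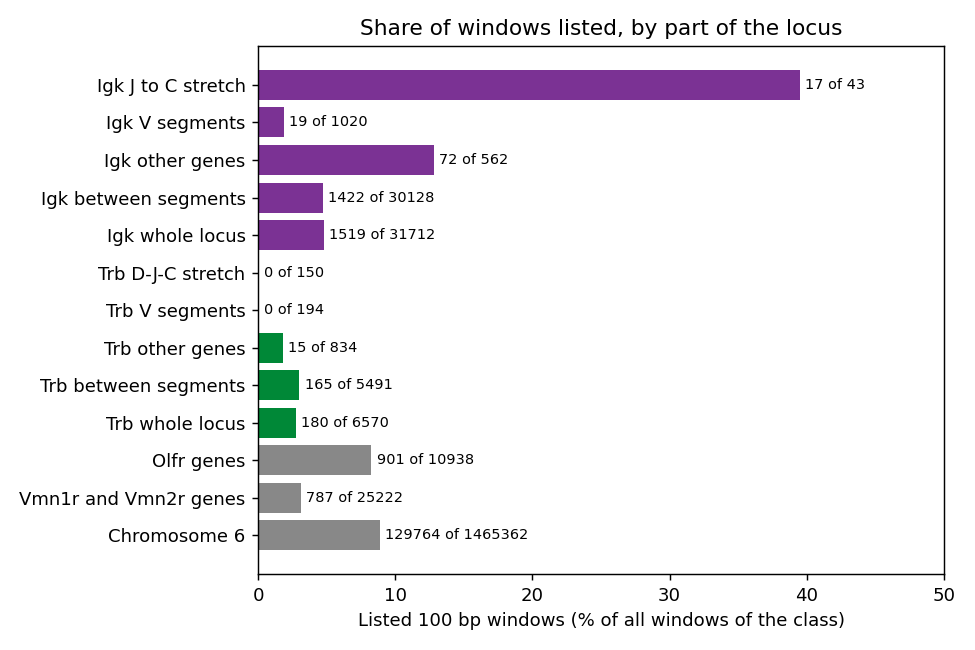
Share of 100 bp windows that are listed (horizontal axis, % of all windows of the class) for classes of Igk (purple), classes of Trb (green), and olfactory receptor genes, vomeronasal receptor genes and chromosome 6 (grey); the counts stand beside the bars. The Igk J to C stretch reaches 39.5%, while the Trb V segments and the Trb D-J-C stretch are at 0.

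Sequence between segments was listed at 4.72% in Igk and 3% in Trb. Other annotated genes were listed at 12.8% in Igk, where 12 of 30 had a listed window and most of the 30 are pseudogenes. In Trb they were listed at 1.8%, and 2 of 18 had one. The 500 kb on either side of the loci were listed at 10% for Igk and 5.17% for Trb, so both loci were covered less than the sequence around them. The same held per 100 kb, where the median listed share was 3.9% over 31 bins of Igk (range 0.8% to 13.7%) and 2.2% over 6 bins of Trb (0.5% to 6.3%), against 7.5% over all 11143 bins, of which the middle 90% ran from 1.2% to 22.9%. Multigene families elsewhere gave 8.24% for 588 olfactory receptor genes and 3.12% for 261 vomeronasal receptor genes. The alignments are named unique-filtered, and V segments and trypsinogen genes have near-identical copies. The part of discarded reads, of CpG content and of methylation in the low listed share was not tested.

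Within Trb the listed windows stood in 37 runs of adjoining windows, and 5 runs of 10 or more held 40.6% of them. The locus was therefore mostly without listed windows, with a few dense islands. The stretch from Trbd1 to Trbc2, which holds both D segments, all J segments and both constant segments (Trbd1, Trbc1, Trbd2 and Trbc2 among them), lay in a gap of 72.6 kb from 41489101 to 41561700 with no listed window. That gap also took in Trbv31, the V segment beyond the constant segments, which lies just outside the interval analysed and had 0 of 8 windows listed. Of 129763 pairs of successive listed windows on chromosome 6, adjoining ones included, 37 stood at least as far apart, this pair among them. A gap of 78.2 kb covered 14 V segments, with Trbv13-1, Trbv13-2 and Trbv13-3 among them. Trbv29 and Trbv1 were not listed either. The longest gap of the locus, of 148 kb between positions 41327201 and 41475300, held 6 genes and pseudogenes, the trypsinogen genes Prss1 and Prss3 among them. On the chromosome 2 gaps were at least as long, this one included. Prss1, Prss2, Prss3 and Try4 had no listed window in 49, 34, 40 and 34 windows.

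**Figure D2:**
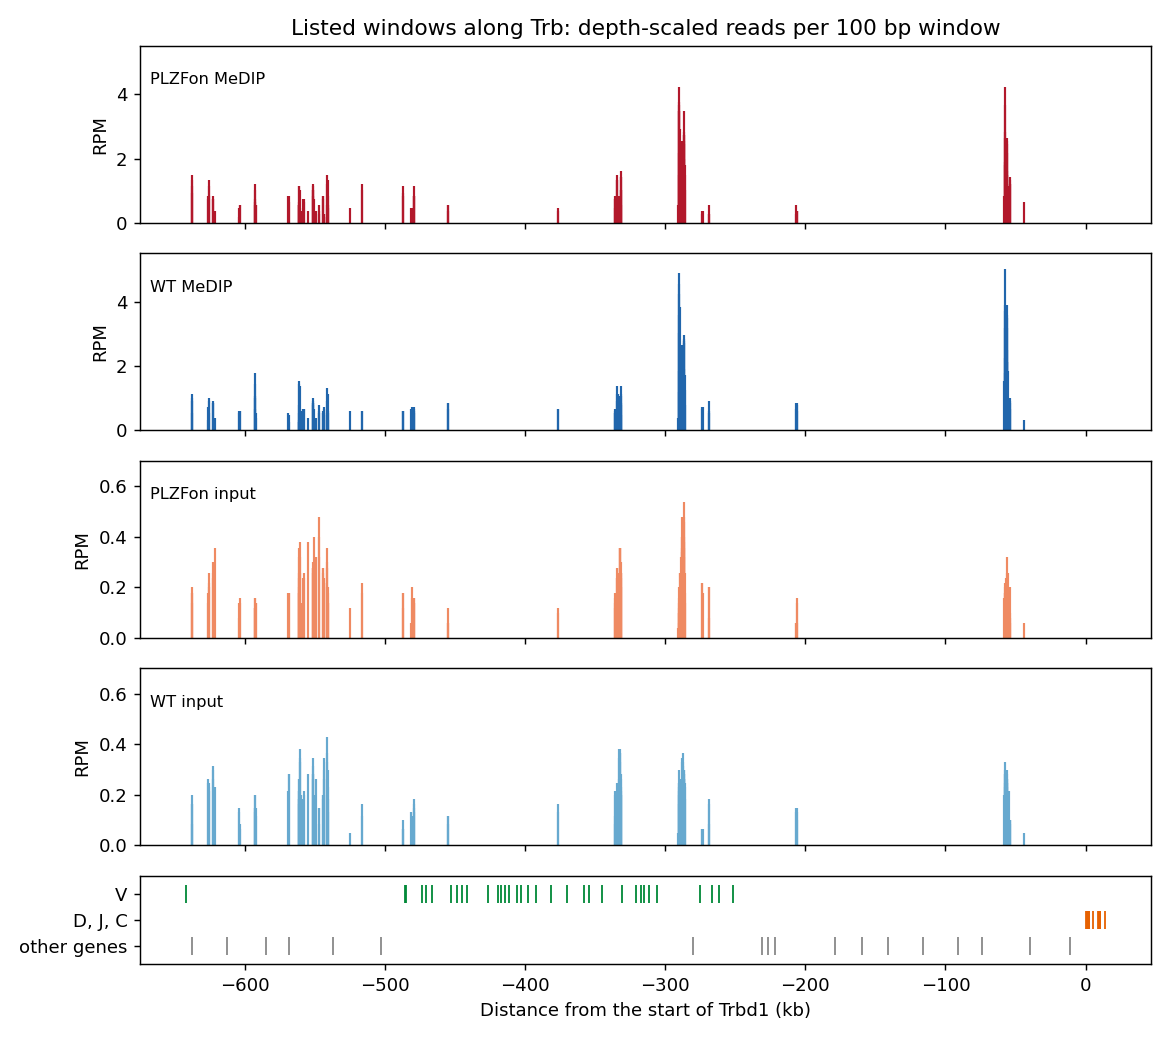
Depth-scaled reads per listed 100 bp window (vertical axes, RPM, reads scaled to library size) along Trb (horizontal axis, kb from the start of Trbd1) in the PLZFon MeDIP, WT MeDIP, PLZFon input and WT input libraries, with the V segments, the D, J and C segments and other genes marked below. Both MeDIP libraries peak in the same islands, 1 group of them 14.5 kb from Trbv27 and 1 group 57.2 kb before Trbd1, and no bar stands over the D, J and C segments.

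The Trb islands that took the most MeDIP reads lay between segments. The island at 41242601 to 41243600, 14.5 kb from Trbv27, had 73.5 PLZFon and 114 WT MeDIP reads over 10 windows, with 18 PLZFon and 31 WT input reads. MeDIP was 19.3 times input in PLZFon cells and 14.7 times in WT cells, against 5.05 and 5.53 over the whole locus, and its CpG factor reached 11. An island 57.2 kb before Trbd1 (41475301 to 41476000) had 47.5 PLZFon and 80.8 WT MeDIP reads, 14.3 and 11.5 times input. Both libraries were thus strongly pulled down at these sites. The longest island, 41244801 to 41247300 with 23 windows, held 108 PLZFon and 152 WT MeDIP reads at a PLZFon over WT ratio of 1.01 (0.779 to 1.3). The island 55.3 kb before Trbd1 (41476301 to 41477900, 15 windows) held 51.8 PLZFon and 109 WT reads and stood at 0.678 (0.477 to 0.952), while its inputs stood at 0.985 (0.629 to 1.53). It was 1 of 37 islands and was picked out after its value was seen.

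Because rearrangement can remove DNA, the input level was followed between the segments that NKT cells use, relative to all listed windows of chromosome 6. Over the whole of Trb it was 1.12 (1.02 to 1.22) in the PLZFon input and 1.1 (1.01 to 1.2) in the WT input. From Trbv1 to Trbv2 it was 1.15 (1 to 1.32) in PLZFon and 1.1 (0.967 to 1.25) in WT, over 73 windows. From Trbv2 to Trbv13-1 it was 0.639 (0.364 to 1.04) in PLZFon and 0.651 (0.392 to 1.02) in WT, over only 10 windows. From Trbv13-3 to Trbv29 it was 1.3 (1.13 to 1.49) in PLZFon and 1.23 (1.07 to 1.39) in WT, over 64 windows. Between Trbv30 and Trbd1, 251 kb that joining a V segment upstream would remove, it was 0.846 (0.658 to 1.07) in PLZFon and 0.996 (0.807 to 1.22) in WT, over 33 windows. No stretch with a level had an interval wholly below the chromosome in either input, and the 2 genotypes had overlapping intervals in each. Input was followed only in listed windows, which need at least 10 reads over both MeDIP libraries. Windows that lost DNA may thus not be listed, so these levels did not test for loss of DNA by rearrangement. The stretches from Trbv13-1 to Trbv13-3, Trbv29 to Trbv30, Trbd1 to Trbc1 and Trbd2 to Trbc2 had no listed window and no input level. By bins of 20 kb, only 6 of 34 in Trb and 52 of 160 in Igk had at least 10 listed windows. Of these, 0 were at 0.75 of the chromosome level or less in both inputs, against 5.26% of 33281 bins in all. Igk stood at 1.13 (1.1 to 1.16) in the PLZFon input and 1.11 (1.08 to 1.14) in the WT input.

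Igk had 323 runs of listed windows, and 29 runs of 10 or more held 36.3% of them. Most of the largest lay between V segments. The run with the most MeDIP reads, 68287301 to 68290500, lay 11.9 kb from Igkv2-109 and held 193 PLZFon and 280 WT MeDIP reads, 6.89 and 7.81 times input. Its highest window (68290001 to 68290100, CpG factor 8) had 62 PLZFon and 94 WT MeDIP reads, with 21 PLZFon and 24 WT input reads. A run reaching the pseudogene Igkv14-134-1 held 156 PLZFon and 253 WT MeDIP reads over 33 windows. A run inside the pseudogene Gm8828 held 139 and 207. Reads were shared between the libraries near their depths at these 3 sites, with ratios of 0.98 (0.812 to 1.18), 0.879 (0.715 to 1.08) and 0.957 (0.766 to 1.19).

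The J and C end of Igk was read in both libraries. Igkc, the constant segment, had 3 of 4 windows listed. Their counts summed to 30 PLZFon and 36 WT MeDIP reads and to 20 and 26 input reads, before division by 4. MeDIP was 7.1 times input in PLZFon and 5.55 times in WT. Igkj1, Igkj2 and Igkj4, joining segments, had their window listed, with 8, 8 and 7 PLZFon reads and 10, 13 and 12 WT reads per window. Igkj3 and Igkj5 were not listed. Over the stretch from Igkj1 to Igkc there were 29.8 PLZFon and 47.8 WT MeDIP reads, a ratio of 0.887 (0.542 to 1.43), and MeDIP was 5.64 and 5 times input. These counts could not resolve a difference between genotypes.

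Few Igk V segments had a listed window. Of 102 V segments not annotated as pseudogenes 3 had a listed window (0.912% of their windows), and of 60 V pseudogenes 7 had one (3.59%). The 3 were Igkv9-124, Igkv7-33 and Igkv6-29. Igkv7-33 had 5 PLZFon and 11.2 WT MeDIP reads over 3 windows, a ratio of 0.633 (0.173 to 1.96). The pseudogene Igkv13-78-1, whose 2 window counts summed to 17 PLZFon and 1 WT input reads before division by 4, was uneven between the inputs. It was singled out after its values were seen.

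Among listed windows, the pull-down over both loci followed CpG content. Because listing needs at least 10 MeDIP reads, it favours high MeDIP over input in all classes, as in the islands and runs above. At a CpG factor of 1 the depth-scaled MeDIP level was 3.49 times input in PLZFon and 3.76 times in WT over Igk, and 3.88 and 4.58 times over Trb. At a factor of 7 or more it was 7.45 (5.94 to 9.38) and 9.3 (7.6 to 11.4) over Igk, and 9.35 (6.24 to 14.2) and 9.81 (6.96 to 14) over Trb. All other listed windows with that factor were at 6.72 (6.64 to 6.79) in PLZFon and 7.35 (7.28 to 7.42) in WT. At that factor only the WT interval of Igk lay above that of the other windows, while the PLZFon interval of Igk and both Trb intervals included it. The WT interval of Igk was also above at a factor of 3 (4.9 to 5.85 against 4.72 to 4.75) and of 4 (5.86 to 7.48 against 5.45 to 5.5). The same held at 5 to 6 (6.47 to 7.94 against 6.31 to 6.38). At factors of 1 and 2 the WT interval of Igk included that of the other windows. Windows with a factor of 7 or more made up 7.22% of the listed windows in Trb and 2.76% in Igk, against 1.63% elsewhere. The mean factor was 3.11 in Trb and 2.61 in Igk, against 2.34 elsewhere, so the windows that were listed in both loci had more CpG than those of other regions.

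**Figure D3:**
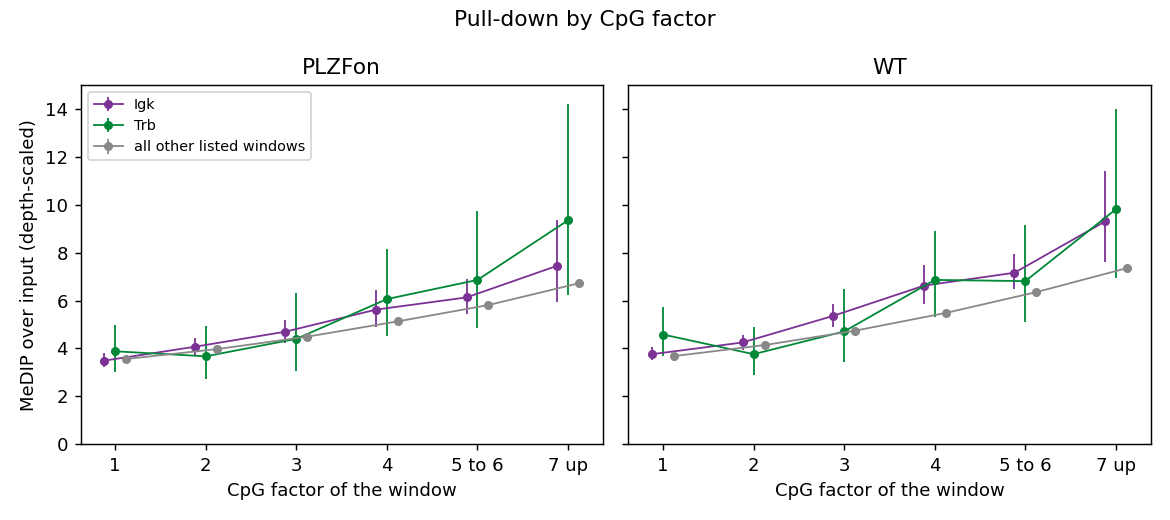
Depth-scaled MeDIP over input (vertical axis, ratio) by the CpG factor of the window (horizontal axis) for Igk, Trb and all other listed windows, in the PLZFon (left) and WT (right) libraries; bars are exact 95% intervals of counting error. Lines start between 3.49 and 4.58 at a factor of 1. At a factor of 7 or more the points of Igk and Trb are at 7.45 and 9.35 in PLZFon against 6.72 elsewhere. In WT they are at 9.3 and 9.81 against 7.35. Only the WT interval of Igk is clear of the other windows there, as it is at factors of 3, 4 and 5 to 6.

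The main comparison set PLZFon against WT MeDIP. Igk had 4011 PLZFon and 6136 WT reads, which with depth gave a PLZFon over WT ratio of 0.931 (0.894 to 0.969). Trb had 529 and 800 reads and a ratio of 0.943 (0.843 to 1.05). The inputs gave 1.03 (0.992 to 1.08) for Igk and 1.03 (0.915 to 1.17) for Trb. All other listed windows had a MeDIP ratio of 0.964 (0.963 to 0.966), which lies inside the interval of both loci, while the remainder of chromosome 6 was at 0.976 (0.971 to 0.981), just above the Igk interval. The 500 kb on either side of Igk had 0.907 (0.856 to 0.96), and those beside Trb 1.02 (0.941 to 1.09). The loci were thus not set apart from the ratio over the other listed windows, which end within chromosome 7, nor Igk from the sequence around it. In a mixture of cells, a lower pull-down in all cells and an absent one in some cells cannot be told apart.

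By class, Igk V segments had 27.8 PLZFon and 60.8 WT reads and stood at 0.65 (0.399 to 1.03). With 500 bp on each side of the segments it was 0.718 (0.57 to 0.901), below the 0.943 (0.904 to 0.983) of the sequence between segments so defined. J and C segments had 13.2 and 17.8 reads and a ratio of 1.06 (0.481 to 2.29). Sequence between segments was at 0.936 (0.898 to 0.975) in Igk and 0.942 (0.84 to 1.06) in Trb. Other genes were at 0.888 (0.74 to 1.06) in Igk and 0.944 (0.584 to 1.51) in Trb. With segments as annotated, the class intervals overlapped within each locus. In Trb the stretch from Trbv30 to Trbd1 had the lowest ratio, 0.786 (0.625 to 0.986), with inputs at 0.863 (0.624 to 1.19), and that from Trbv1 to Trbv2 was at 1.07 (0.854 to 1.33).

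**Figure D4:**
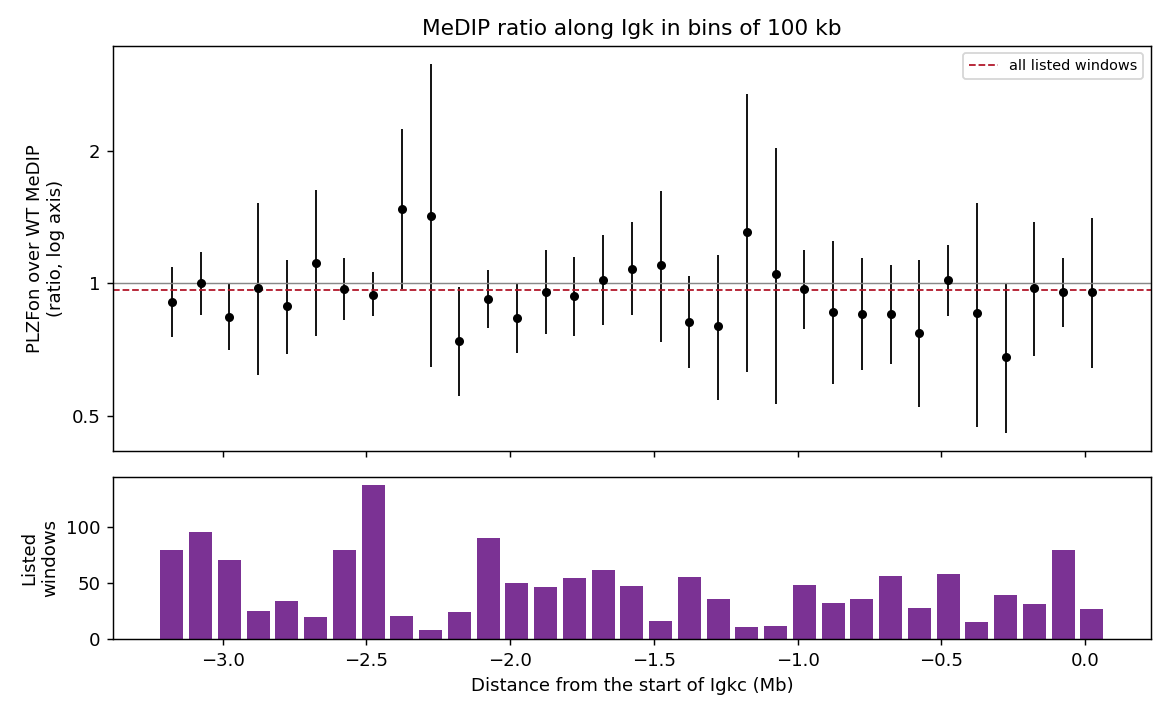
Ratio of PLZFon over WT MeDIP reads (upper panel, log axis, exact 95% intervals of counting error) and number of listed windows (lower panel) in bins of 100 kb that lie in or overlap Igk, by distance from the start of Igkc in Mb; the dashed line is the ratio over all listed windows, 0.964. The bins scatter on both sides of that line and most intervals cross it, with the highest bin at 1.48.

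Along Igk the ratio in 31 whole bins of 100 kb ran from 0.679 to 1.48 with a median of 0.955, against 0.965 over all bins. No bin had an interval wholly below the ratio over all listed windows, where 1.85% of all bins did. In 1 bin it was above, where 2.63% of all bins were. That bin, 68300001 to 68400000, held 48.8 PLZFon and 47 WT reads. The lowest, 70400001 to 70500000, held 41.2 and 86.5. In Trb 5 bins ran from 0.805 to 1.18 and none stood clear of the ratio over all listed windows. Apart from that 1 Igk bin, no bin of either locus was set apart from that ratio by counting error at this scale.

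Single windows were read against a fixed size rule: at least 20 reads over both MeDIP libraries, a change of 2-fold or more up or down, and an interval that excludes equality. In Igk 6 of 750 windows with enough reads were higher in PLZFon (0.8%, background 1.13%) and 16 were lower (2.13%, background 2.17%). With TMM scaling these were 14 (1.87%, background 1.8%) and 15 (2%, background 1.74%). In Trb 0 of 94 windows passed in either direction. The same rule on the inputs gave 18 higher (1.7%, background 1.92%) and 11 lower (1.04%, background 1.43%) of 1060 in Igk, and 4 higher (3.28%) and 1 lower (0.82%) of 122 in Trb. Under both scalings the MeDIP shares were near the background in Igk, slightly above it in both directions with TMM, and at 0 in Trb. Among the input shares, only that of higher windows in Trb was above background. In the authors' deposited table no window of either locus had an adjusted p under 0.05, against 0.0144% of all windows, and the lowest adjusted p was 0.654 in Igk and 1 in Trb.

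The 16 lower Igk windows formed 7 sites, 5 of them with 2 or more windows. One lay at the V pseudogene Igkv1-136, where 3 adjoining windows (67593701 to 67594000) had 14, 13 and 9 PLZFon reads and 44, 39 and 33 WT reads. Their inputs were even, with 10, 10 and 9 PLZFon reads and 12, 12 and 11 WT reads, and the ratios were 0.453 (0.229 to 0.842), 0.475 (0.232 to 0.908) and 0.388 (0.163 to 0.829). A site 2.27 kb from the pseudogene Igkv15-97 had 8, 14 and 12 PLZFon reads and 35, 45 and 35 WT reads in adjoining windows, with inputs of 13, 13 and 14 in PLZFon and 10, 10 and 12 in WT. With depth, the input ratios of that site were 1.57, 1.57 and 1.41, with intervals that included equality. The windows of both sites were chosen for a low MeDIP ratio, and adjoining windows share reads. At 68187701, 8.14 kb from Igkv2-113, MeDIP and input moved in opposite directions, with 7 PLZFon and 29 WT MeDIP reads and 17 PLZFon and 6 WT input reads.

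The lowest window of Igk by ratio was 68658301, at 0.203 (0.0388 to 0.681) from 3 PLZFon and 21 WT reads. The next were 69326101, 1.46 kb from Igkv12-67, with 3 and 19 reads, and 70008801, 2.05 kb from Igkv1-35, with 3 and 17 reads. At the top, 5 windows tied at 2.85: 70276401 and 70276501, neighbours 15.5 and 15.6 kb from Igkv6-23, with 16 and 8 reads each, and 68194701, 68361601 and 68361701 with 14 and 7 reads each. They rest on single-digit WT counts, and their intervals start at 1.15 for the neighbours and at 1.08 for the other windows. In Trb the lowest windows were 41476601 with 5 PLZFon and 17 WT reads (0.419, 0.121 to 1.18), 41200801 near Trbv21 with 5 and 15, and 40940301 in 1700074P13Rik with 6 and 16. The highest were 41016901 with 13 and 9 reads (2.06, 0.813 to 5.45), 41046101 near Trbv2 with 12 and 9, and 41478901 with 13 and 10. None of these 6 Trb intervals excluded equality.

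Of the annotated members, 8 had at least 20 MeDIP reads. The V pseudogene Igkv1-136 stood at 0.435 (0.134 to 1.18) from window sums of 22 PLZFon and 72 WT reads, each divided by 4. It had the most MeDIP over input in WT, 12.5 against 5.48 in PLZFon. Only 2 of its windows were listed, so the division understated its reads and widened its interval. Its window at 67593801 alone held 13 PLZFon and 39 WT reads, at 0.475 (0.232 to 0.908). The pseudogenes Gm5308, Amd-ps5 and Amd-ps2 were at 0.559 (0.217 to 1.3), 0.61 (0.256 to 1.34) and 0.701 (0.26 to 1.73). Gm8828, the most deeply read with 141 PLZFon and 212 WT reads, was at 0.946 (0.759 to 1.18), and Gm6157 was at 1.01 (0.413 to 2.4) with the least MeDIP over input, 2.09 in PLZFon and 3.28 in WT. In Trb the trypsin-family protease gene Prss58 stood at 1.37 (0.59 to 3.18) from 13 PLZFon and 13.5 WT reads, and 1700074P13Rik had 19 and 34.8, a ratio of 0.778 (0.42 to 1.4). With sums divided by 4, the intervals of all 8 included equality, and those of segments with few reads were wide. The 2 listed windows of Igkv1-136, both chosen for a low ratio, had intervals that excluded equality when taken singly.

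The Igk windows were also grouped by distance from the nearest V, J or C segment, in classes chosen after the data were seen. Within a segment the MeDIP ratio was 0.744 (0.497 to 1.1) over 25 windows, and up to 1 kb away it was 0.772 (0.659 to 0.903), with 249 PLZFon and 458 WT reads over 81 windows. From 1 to 5 kb it was 0.899 (0.83 to 0.974), from 5 to 10 kb 0.948 (0.883 to 1.02) and beyond 10 kb 0.98 (0.916 to 1.05). The ratio was thus lower near segments than far from them, and the intervals of the classes up to 1 kb and beyond 10 kb did not overlap. Up to 1 kb the inputs were at 1.03 (0.842 to 1.25), and MeDIP was 6.21 (5.12 to 7.54) times input in PLZFon and 8.26 (7.02 to 9.74) times in WT. Those windows lay beside 22 segments. Without the 3 segments with the most reads, Igkv14-134-1, Igkv9-124 and Igkv15-97, the ratio was 0.737 (0.573 to 0.942), and leaving out any 1 of the 5 largest gave 0.763 to 0.78. The listed share climbed with distance, at 2.43% within segments, 2.5% up to 1 kb, 3.33%, 5.83% and 7.27%.

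**Figure D5:**
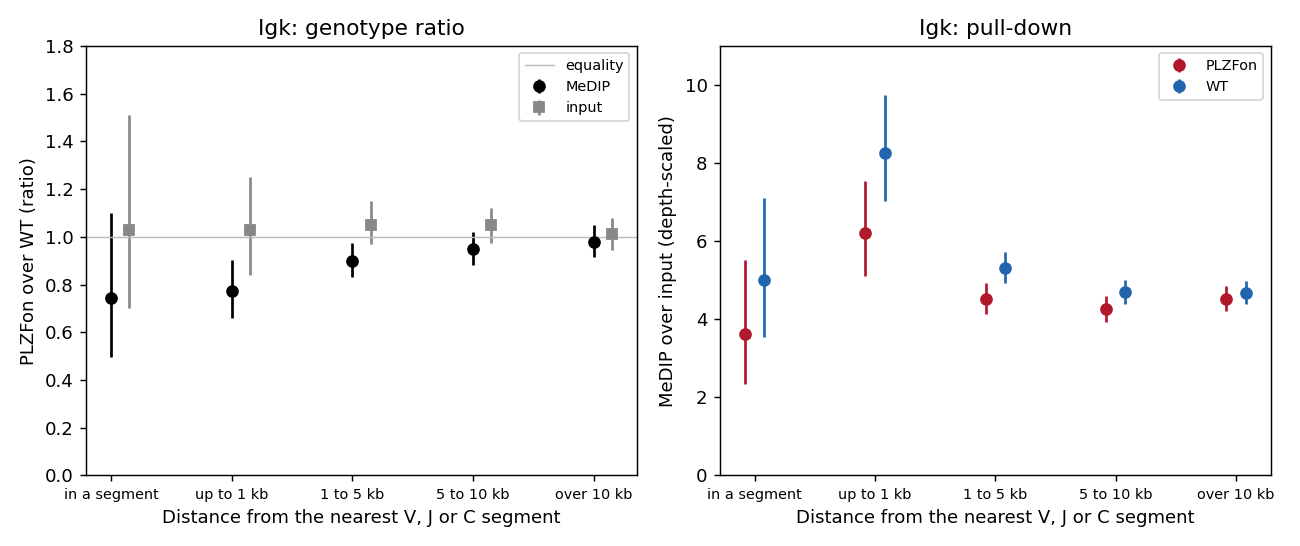
Igk windows by distance from the nearest V, J or C segment (horizontal axes): left, the PLZFon over WT ratio of MeDIP and input; right, MeDIP over input (depth-scaled ratio) in PLZFon (red) and WT (blue), with exact 95% intervals of counting error. The MeDIP ratio goes from 0.744 in segments to 0.98 beyond 10 kb while the input ratio stays between 1.01 and 1.05, and the pull-down up to 1 kb is 6.21 in PLZFon and 8.26 in WT.

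In Trb only 4 windows lay up to 1 kb from a segment (0.543% listed), at a ratio of 1.22 (0.522 to 2.83). Beyond 10 kb, 132 Trb windows had 0.922 (0.815 to 1.04). The Trb counts were too few to read a course with distance.

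Genes that act on these loci were read in the same libraries, each with 1000 bp on either side. Of 24 genes of the V(D)J machinery 8 lay in the range of the table and 7 had 20 reads. By the size rule 0 were higher (background 0.0913% of 7668 loci) and 0 lower (background 0.352%), and the median log2 ratio was 0.01, against -0.06 over all loci. Rag1, a subunit of the recombinase, had 99.5 PLZFon and 142 WT reads and a ratio of 0.999 (0.766 to 1.3), and Rag2, its partner, had 15.2 and 14 reads and 1.55 (0.701 to 3.46). Hmgb1, a DNA-bending cofactor, was at 1.24 (0.764 to 2). Of 16 B lineage genes 6 lay in the range of the table and 5 had 20 reads, with 0 higher, 0 lower and a median log2 ratio of -0.28. Cr2, a complement receptor, was at 0.679 (0.289 to 1.49), and Cd79a, a signalling chain of the B cell receptor, at 0.778 (0.41 to 1.43). Pax5, the transcription factor that commits cells to the B lineage, was read most deeply, with 486 PLZFon and 817 WT reads, and stood at 0.848 (0.756 to 0.95) with inputs at 0.946 (0.857 to 1.04). Of 16 T lineage genes 10 lay in the range of the table and all 10 had 20 reads, with 0 higher, 0 lower and a median of -0.03. Cd28, a costimulatory receptor, was at 0.63 (0.348 to 1.1), and Gata3, a T cell transcription factor, at 1.36 (0.78 to 2.38). No list held a member past the rule.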

How the data were processed

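MeDIP and input libraries of PLZFon and WT NKT cells, 1 per group and grouped by title, were analysed from 1 deposited table. Per the submitters' processing notes, BWA, edgeR and mm10 were used, without versions; alignments were sorted and unique-filtered per the file headers. The table holds raw counts of reads per 100 bp window, and, from the authors, RPKM values, relative methylation scores, a CpG factor (a score from 1 to 20 whose formula is not given in the sources used here), log2 fold changes, p-values and adjusted p-values. The deposited counts, CpG factor and adjusted p-values were used. Its 1048576 lines, header included, are as many as a spreadsheet can hold, and the last lie on chromosome 7.

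Library totals were recovered from deposited counts over RPKM, and the share of reads in PLZFon over that in WT gives a ratio with an exact (Clopper-Pearson) 95% interval; input levels have exact Poisson intervals. Intervals cover counting error only, since PCR copies are not independent. The scaled squared difference between input windows levelled off at a distance of 4 windows (PLZFon input 1.199 at 4 and 1.236 at 8), so a read was taken to count in about 4 windows and sums over regions were divided by 4. This is less certain for MeDIP, and reads are understated where fewer than 4 listed windows hold a read. Reads of a single window are its count. Segments came from RefSeq GRCm38.p6, the primary assembly of mm10, and a window belongs to a segment it overlaps.

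The members and lists were chosen with earlier results of these data known. Named were the receptor segments NKT cells use with all D and C segments and Igkj segments, the members with at least 20 reads and the highest or lowest ratios or pull-down, the 3 highest and 3 lowest windows of each locus, and the 2 list members farthest from a ratio of 1. Other sites, islands and list genes were named after their values were seen. Alternatives were TMM scaling (edgeR 4.0.16), scaling by listed windows or within CpG classes, other read and ratio minimums, window and segment bounds, and input filters. The ratio and rule were tested on simulated data. Python 3.11.15, pandas 2.3.3 and scipy 1.17.1 were used.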

Additional observations from a re-analysis of the deposited data

How the results depend on the processing

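Over 32 results and 122 alternatives, 104 kept their value within the counting interval or within 1.5 times the count, 18 moved and none reversed. Many of the 104 could not have moved. Neither locus held a window of 60 or more input reads, so leaving such windows out changed no MeDIP ratio or MeDIP over input. Stricter rules on a Trb count of 0 could only return 0. Intervals of single segments and genes were too wide for TMM scaling to leave. The 104 is thus not a measure of robustness. Scaling within CpG factor classes brought the Igk MeDIP ratio to 0.97 (0.932 to 1.01), and TMM scaling to 0.965 (0.927 to 1). Both scalings shift the other listed windows as well, TMM by factors of 0.982 for PLZFon and 1.018 for WT MeDIP. These ratios therefore cannot be set against the unscaled 0.964 of the other windows, and they do not show Igk moving toward it. Igk windows higher in PLZFon numbered 14 of 1519 with at least 10 reads (0.922%, background 1.39%), 14 of 750 with TMM (1.87%, background 1.8%), 0 of 269 with at least 40 reads (background 0.595%) and 0 of 750 with a ratio of at least 3 (background 0.352%). Lower ones numbered 7 with at least 40 reads (2.6%, background 2.02%) and 7 with a ratio of at least 3 (0.933%, background 0.939%). The Igk input level in PLZFon was 1.22 by the median, 1.22 against the 500 kb on each side, 1.18 without windows of 60 or more input reads and 1.05 over windows with 20 MeDIP reads; in WT it was 1.23 against the 500 kb on each side, 1.15 and 1.04 under the last 2. MeDIP over input as a median over windows was 3.44 in PLZFon and 3.72 in WT for Igk, and 3.64 and 4.53 for Trb. The cause of these moves was not tested. The Igk ratio up to 1 kb from a segment was 0.801 (0.684 to 0.937) with TMM and 0.81 (0.692 to 0.948) within CpG classes, both chosen after seeing the data. The same shift of all windows applies to these values. Depth limits segments to ratios with wide intervals. No paired analysis was possible because each group holds 1 library.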
